A study of Mus musculus with 12 samples.

Results

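Excision, mismatch and translesion repair genes were examined as a set of 43 genes that remove altered bases, correct replication errors or copy past damage, and each was described through the probe sets annotated with exactly its symbol. These rules found 39 probe sets for 39 of the 43 genes, among 16755 probe sets in all (14996 with 1 symbol, for 14860 genes): 12 for nucleotide excision, 14 for base excision and single-strand break repair, 4 for mismatch repair, 6 for translesion synthesis and 3 for direct reversal. Tdg, Lig3 and Neil3 lay only on probe sets with several symbols, and Ercc6 had none in the annotation used, so these 4 genes were not analysed here. The probe sets came from Affymetrix Mouse Exon 1.0 ST arrays hybridised with RNA of murine embryonic fibroblasts (MEFs), and the study asked which genes depend on p21-activated kinase 1 (Pak1) with and without DNA damage.

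All MEFs were taken from C57Bl6J embryos at embryonic day 13.5, were immortalised with the SV40 T antigen, and were grown in DME with serum. The WT group carried Pak1, the KO group came from Pak1-/- embryos of a mouse without Pak1 in its whole body, and the WT-IR and KO-IR groups were the same 2 genotypes after ionizing radiation. There were 3 arrays per group, described in the labels only as biological replicates, so a p-value measures the spread between these arrays. No source used here gives the total dose or the time between irradiation and harvest. Nor do they say how many embryos or immortalised lines each genotype represents, so a difference between genotypes cannot be told apart from a difference between lines, and the small number of arrays limits the precision. The study lists the Y-linked gene Eif2s3y, with Ddx3y and Uty, among the genes most lowered in the KO without irradiation. The part of such a difference between the cells in the genotype comparisons was not tested. In such bulk samples fewer cells of a type and less RNA per cell cannot be told apart.

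Nucleotide excision repair cuts out a short stretch of DNA around a bulky lesion, with the TFIIH complex opening the helix and nucleases cutting on either side. Base excision repair starts with glycosylases that remove single altered bases, mismatch repair corrects replication errors, and translesion polymerases copy across lesions that stop the replicative ones. The large T antigen of SV40 binds p53, the transcription factor through which many damage responses run.

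Each value below is a log2 level relative to the median of that probe set over the 12 arrays, since the deposited table was centred that way, so values compare arrays and never 1 gene with another. A gene was called where the limma fit gave a Benjamini-Hochberg adjusted p under 0.05 over all probe sets, and fold changes of 2, the study's own threshold, are given beside. The medians of the 12 arrays lay between -0.02 and 0.02, and no array stood apart from its group, with mean correlations of 0.836 to 0.917 to the other arrays of the group. Of 12 fibroblast markers 8 were called in each genotype comparison, 4 higher and 4 lower, against 43.2% and 44.6% of all probe sets. They ran from -2.33 (Pdgfra) to 1.29 (Thy1) in KO vs WT, with 3 past 2-fold. Their mean level was 0.0434 to 0.107 on the WT and 0.0478 to 0.0714 on the WT-IR arrays, above -0.0748 to -0.00999 on the KO and -0.163 to -0.140 on the KO-IR arrays. Their median log2 change was instead 0.03 in KO vs WT and 0.04 in KO-IR vs WT-IR. In each comparison 7 of the 12 were higher in the KO and 5 lower, called or not. The part of these markers in the genotype differences below was not tested. Since the values are centred, the labelled cell type could not be checked by absence of markers. Pak1 itself was not analysed here, as it had 0 probe sets of 1 symbol. Among the markers of other cell types, the macrophage gene Csf1r was lower in both genotype comparisons (log2 changes of -2.26 and -2.37), while Ptprc, Cd68 and Adgre1 differed by -0.03, -0.03 and -0.01 in KO vs WT and Cd68 was higher by 0.31 in KO-IR vs WT-IR. Of 3 epithelial markers Epcam was higher in the KO by 0.26 and 0.38, and of 4 endothelial markers Kdr by 0.17 and 0.20, with no other of them called.

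The 2 genotypes differed at most of these genes before irradiation. In KO vs WT, 28 of 39 members were called, against 43.2% of all probe sets: 11 were higher in the KO (background 21.5%) and 17 lower (background 21.7%). None of the 28 reached 2-fold (background 4.42%) and 4 reached 1.5-fold, namely Ercc2, Gtf2h1, Ercc8 and Mgmt, all lower (background 12.5%). The median log2 change was -0.11 over the members and -0.02 over all probe sets. After irradiation, in KO-IR vs WT-IR, 29 members were called against a background of 44.6%, 11 higher (23.4%) and 18 lower (21.2%). Ercc5 and Polk passed 2-fold (background 5.06%) and 6 members passed 1.5-fold (background 14.2%). The median was -0.06 over the members and 0.01 over all probe sets. The 26 members called in both comparisons had the same sign in both. These comparisons share no arrays, but they set the same genotypes against each other and share the same estimate of the spread. The share of all probe sets called in both with the same sign was not counted.

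Some of these calls depended on the test. The t-test of the methods did not call 6 of the 28 members in KO vs WT: Poli (adjusted p = 0.0519), Alkbh3 (0.0561), Mlh3 (0.0583), Polb (0.0848), Xpc (0.106) and Polh (0.162). It did not call 7 of the 29 in KO-IR vs WT-IR: Pms2 (adjusted p = 0.0553), Gtf2h4 (0.107), Rev1 (0.109), Mlh3 (0.127), Xpc (0.142), Poli (0.1501) and Alkbh2 (0.198). With only the compared groups in the limma fit, Polh was lost in the first comparison (adjusted p = 0.05002), and Poli (0.0522), Pms2 (0.0613) and Alkbh2 (0.0761) in the second.

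**Figure D1:**
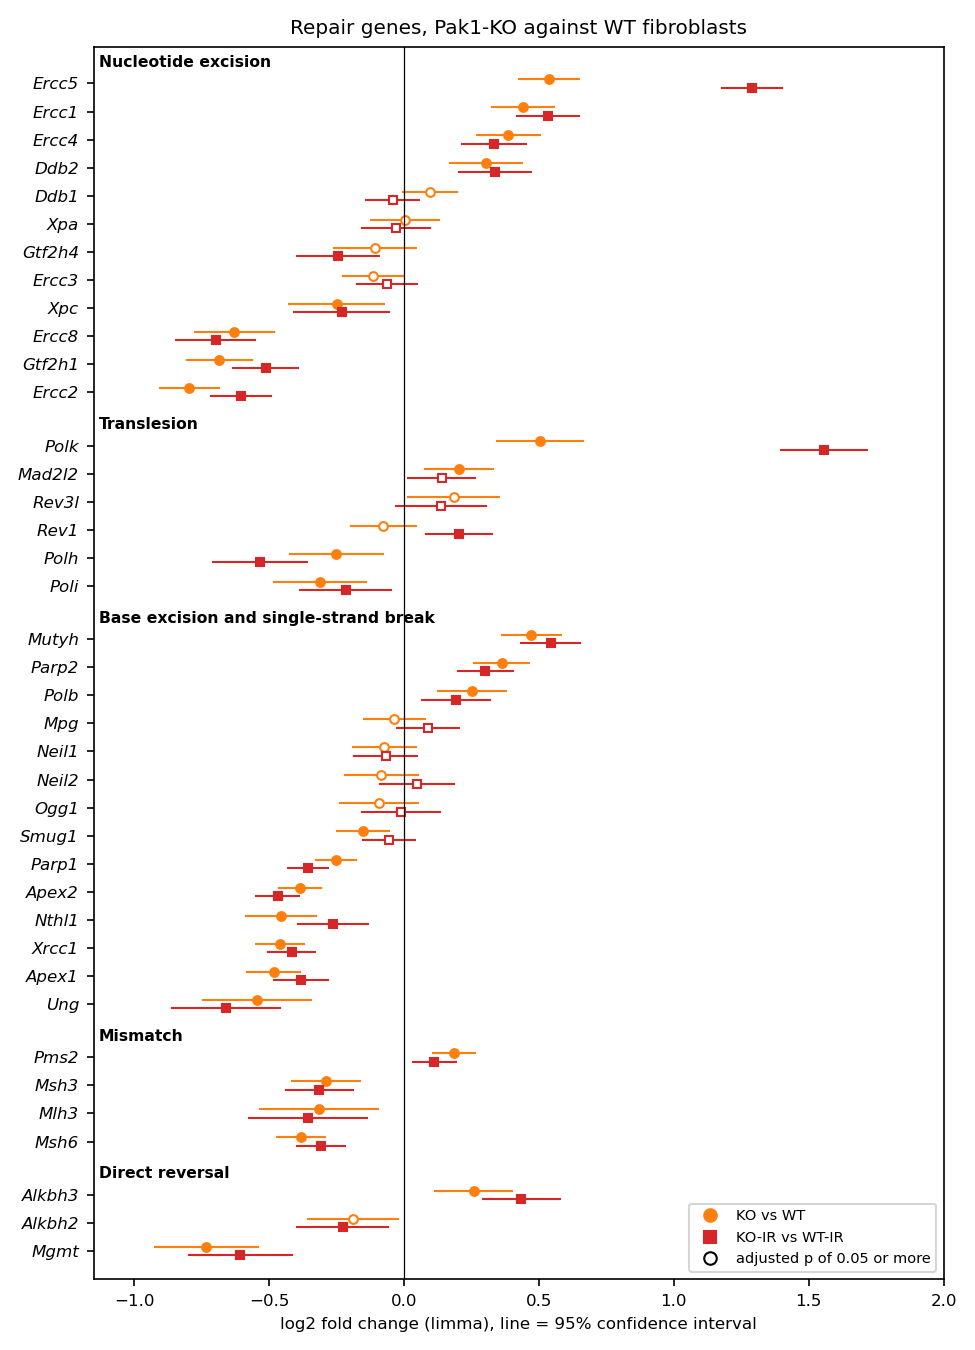
Log2 fold change of each of the 39 repair genes in KO vs WT (orange circles) and KO-IR vs WT-IR (red squares), with lines for the 95% confidence interval of the limma fit and open symbols for an adjusted p of 0.05 or more. Genes are grouped by repair class, and Ercc5 at 1.29 and Polk at 1.56 lie to the right of all other members after irradiation.

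Ercc5 and Polk were the only 2 of 39 members whose response to irradiation differed between the genotypes at an adjusted p under 0.05. The background was 1.37% of all probe sets in either direction and 1.17% in theirs. At an unadjusted p under 0.05 in limma there were 7 members, beside 1869 of all 16755 probe sets. The product of Ercc5, XPG, is a nuclease that makes the incision downstream of a lesion, and Polk encodes the Y-family translesion polymerase kappa. For Ercc5 the WT arrays read -0.31, -0.28 and -0.22, the WT-IR arrays -0.45, -0.30 and -0.30, the KO arrays 0.25, 0.22 and 0.34, and the KO-IR arrays 0.98, 0.93 and 0.90. For Polk the WT arrays read -0.19, -0.29 and -0.31, the WT-IR arrays -0.25, -0.36 and -0.43, the KO arrays 0.25, 0.19 and 0.29, and the KO-IR arrays 1.04, 1.25 and 1.33. In both genes the KO arrays lay above all WT and WT-IR arrays, the KO-IR arrays lay above all KO arrays, and the WT and WT-IR arrays overlapped. Ercc5 was higher in the KO by 0.54 (SE 0.050, adjusted p = 2.61e-06) without irradiation and by 1.29 (2.44-fold, SE 0.050, adjusted p = 1.12e-09) with it. Polk was higher by 0.50 (SE 0.073, adjusted p = 9.87e-05) and by 1.56 (2.94-fold, SE 0.073, adjusted p = 5.18e-09). With irradiation Ercc5 rose by 0.67 in the KO and changed by -0.08 in the WT, and limma gave a difference between those changes of 0.75 (95% confidence interval 0.60 to 0.91, adjusted p = 0.000230). The same test gave 1.05 for Polk (0.83 to 1.28, adjusted p = 0.000278), from a rise of 0.97 in the KO and a change of -0.08 in the WT. By the size of this difference Polk ranked 25 and Ercc5 57 among the 16755 probe sets, and both calls held under all 17 alternatives.

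For the same 2 genes, the RefSeq promoter windows of 300 bases around the annotated start (GRCm38.p6) are shown because only these members passed the test of that difference. Capitals mark the matches found on either strand to 6 motifs: the p53 decamer by its consensus, a pair of such decamers, the GC box (GGGCGG), the CCAAT box, and 2 cores of E2F sites, namely TTCCCGC and the related TTGGCGC. The Ercc5 promoter is chr1:44147494-44147793 on the plus strand, and the Polk promoters, on the minus strand, are chr13:96519138-96519437 and chr13:96542530-96542829.
Ercc5: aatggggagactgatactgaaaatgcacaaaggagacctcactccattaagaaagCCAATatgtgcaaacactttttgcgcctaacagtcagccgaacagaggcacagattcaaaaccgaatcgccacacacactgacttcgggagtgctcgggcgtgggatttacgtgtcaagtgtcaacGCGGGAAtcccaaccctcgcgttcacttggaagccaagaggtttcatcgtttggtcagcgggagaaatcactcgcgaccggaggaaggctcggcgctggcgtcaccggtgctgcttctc
Polk promoter 1: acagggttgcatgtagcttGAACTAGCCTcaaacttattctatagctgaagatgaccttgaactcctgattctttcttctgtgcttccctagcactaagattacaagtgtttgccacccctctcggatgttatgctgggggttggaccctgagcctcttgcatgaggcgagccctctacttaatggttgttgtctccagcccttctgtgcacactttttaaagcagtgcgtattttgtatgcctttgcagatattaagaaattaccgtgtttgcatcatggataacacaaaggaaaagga
Polk promoter 2: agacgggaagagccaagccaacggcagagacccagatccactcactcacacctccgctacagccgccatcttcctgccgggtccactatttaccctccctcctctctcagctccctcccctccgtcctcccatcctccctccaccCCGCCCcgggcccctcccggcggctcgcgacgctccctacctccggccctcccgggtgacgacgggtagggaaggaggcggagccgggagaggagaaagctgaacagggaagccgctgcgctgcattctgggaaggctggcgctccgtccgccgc
The Ercc5 promoter held CCAAT at -195 from the start. It also held GCGGGAA, which is TTCCCGC read on the other strand, at -69. Promoter 1 of Polk held the p53 decamer GAACTAGCCT at -231, and promoter 2 held CCGCCC, the reverse complement of the GC box, at -105. A match describes the letters in the window only. Of the 32851 promoters of this length in the table, 8.36% held a p53 decamer, 0.0731% a pair of them, 37.4% CCAAT, 35.7% the GC box, 4.60% TTCCCGC and 2.45% TTGGCGC. Promoters were listed for 31 of the 39 members, 36 in all: 2 of them, at Polk and Neil1, held the decamer, none the pair, 19 CCAAT, 24 the GC box, 3 TTCCCGC and 5 TTGGCGC.

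Among the 12 nucleotide excision genes, 8 were called in KO vs WT (background 43.2%), 4 higher (21.5%) and 4 lower (21.7%). In KO-IR vs WT-IR 9 were called (background 44.6%), 4 higher (23.4%) and 5 lower (21.2%). The higher ones held all 3 incision genes. Ercc1 and Ercc4 encode the subunits of the nuclease that cuts upstream of the lesion. Ercc1 read -0.15, -0.27 and -0.24 in the WT, -0.37, -0.21 and -0.29 in the WT-IR, 0.15, 0.25 and 0.26 in the KO, and 0.18, 0.27 and 0.28 in the KO-IR arrays. All 6 KO and KO-IR arrays were above all 6 WT and WT-IR arrays, with differences of 0.44 (SE 0.053, adjusted p = 2.04e-05) and 0.54 (adjusted p = 3.49e-06). Ercc4 was higher by 0.39 and 0.33 (adjusted p = 7.79e-05 and 0.000240). Ddb2, which recognises ultraviolet lesions with Ddb1, was higher by 0.30 and 0.34 (adjusted p = 0.00125 and 0.000540), while Ddb1 differed by 0.10 and -0.04 and was not called.

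The TFIIH genes Ercc2 and Gtf2h1 and the transcription-coupled factor Ercc8 were lower. Ercc2, a TFIIH helicase, had the smallest p of all members in KO vs WT: the WT arrays read 0.47, 0.34 and 0.43, the WT-IR arrays 0.27, 0.23 and 0.34, the KO arrays -0.38, -0.36 and -0.40, and the KO-IR arrays -0.23, -0.36 and -0.38. All KO and KO-IR arrays were below all WT and WT-IR arrays. The difference was -0.80 (1.74-fold, SE 0.050, adjusted p = 8.11e-08) without and -0.60 (1.52-fold, adjusted p = 8.17e-07) with irradiation. Gtf2h1, a core subunit of TFIIH, read 0.29, 0.28 and 0.25 in the WT, 0.25, 0.24 and 0.21 in the WT-IR, -0.43, -0.48 and -0.32 in the KO, and -0.39, -0.21 and -0.22 in the KO-IR arrays. It was lower by a log2 difference of -0.69 (adjusted p = 6.39e-07) and -0.51 (adjusted p = 7.46e-06), again without overlap between genotypes. Ercc8, the product of which acts where RNA polymerase stalls, read 0.22, 0.26 and 0.33 in the WT, 0.28, 0.42 and 0.43 in the WT-IR, -0.39, -0.28 and -0.41 in the KO, and -0.46, -0.22 and -0.28 in the KO-IR arrays. Its differences were -0.63 (SE 0.067, adjusted p = 7.64e-06) and -0.70 (adjusted p = 2.73e-06).

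The other TFIIH genes among the members, Gtf2h4 and Ercc3, and the damage sensors moved less. Outside the members, the TFIIH gene Ccnh had group means of 0.22 in the WT, 0.19 in the WT-IR, -0.17 in the KO and -0.41 in the KO-IR arrays. Those of Gtf2h3 were 0.23, 0.14, -0.12 and -0.32 in the same order. All group means of Mnat1 and Gtf2h5, also outside the members, lay between -0.05 and 0.05. Gtf2h4, a further TFIIH subunit, was called only with irradiation, at -0.24 (adjusted p = 0.0121), and differed by -0.11 without. That call was lost without WT-IR replicate 1 (adjusted p = 0.0583) or KO-IR replicate 3 (adjusted p = 0.0571). Xpc, which finds lesions across the genome, was lower by -0.25 and -0.23 (adjusted p = 0.0248 and 0.0349), calls that 7 single omissions ended: WT replicate 2, WT replicate 3 or KO replicate 2 in KO vs WT (adjusted p = 0.0577, 0.0791 and 0.102), and WT-IR replicate 2, WT-IR replicate 3, KO-IR replicate 2 or KO-IR replicate 3 with irradiation (0.144, 0.119, 0.106 and 0.0726). Ercc3, the other TFIIH helicase, differed by -0.11 and -0.06, and the scaffold Xpa by 0.00 and -0.03, with no call in any comparison. Ercc1 and Ercc2, which moved in opposite directions, are near neighbours, with Cd3eap and Ppp1r13l the 2 coding genes between them in the reference order.

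**Figure D2:**
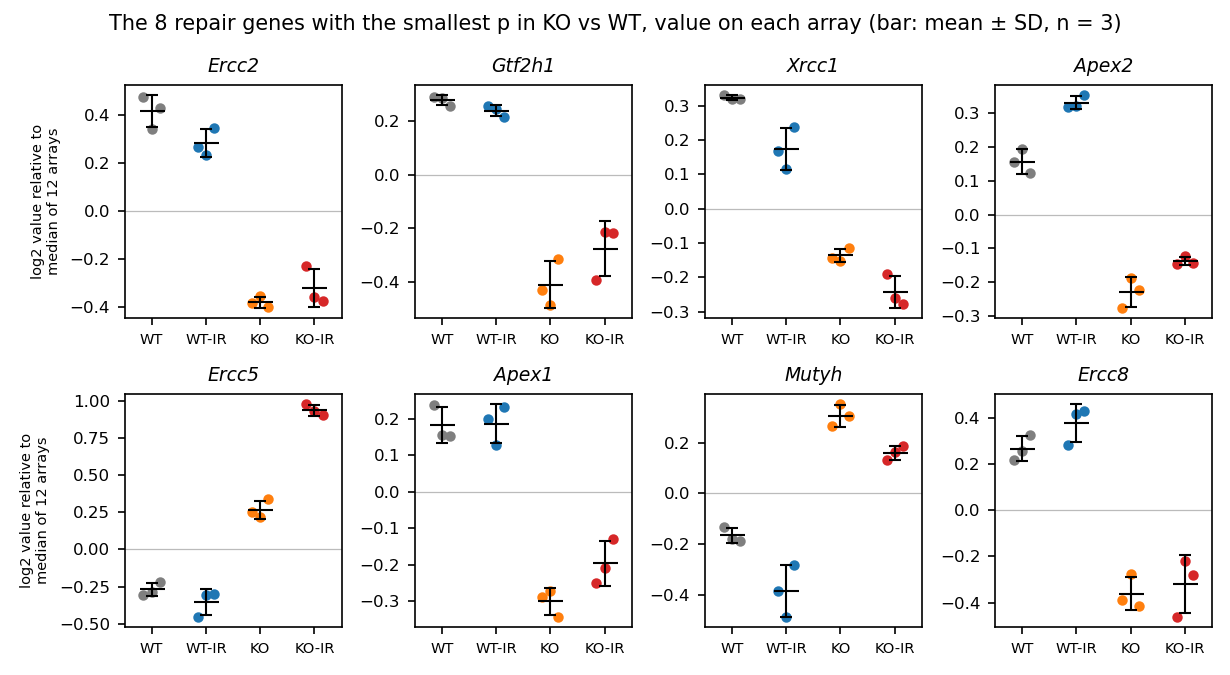
Log2 value on each array, relative to the probe set's median over the 12 arrays, for the 8 members with the smallest p in KO vs WT; bars show the mean and SD of 3 arrays per group. In each panel the WT and WT-IR arrays lie on one side of the KO and KO-IR arrays. The genes were picked by their p in KO vs WT, so the separation of the KO from the WT arrays is no further evidence. The KO-IR arrays lie above the KO arrays in Ercc5 (0.90 to 0.98), Apex1 and Apex2, and below them in Xrcc1 and Mutyh.

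Of the 6 translesion genes, 4 were called in each genotype comparison (background 43.2% and 44.6%), 2 higher and 2 lower. Polk led those that were higher. Polh and Poli, which encode the Y-family polymerases eta and iota, were lower. Polh read 0.02, 0.20 and 0.38 in the WT, 0.08, 0.11 and 0.12 in the WT-IR, -0.03, -0.11 and -0.02 in the KO, and -0.31, -0.47 and -0.52 in the KO-IR arrays. The KO arrays lay just below the lowest WT array, and the KO-IR arrays lay well below all others. The difference was -0.25 (adjusted p = 0.0220) in KO vs WT and -0.53 (adjusted p = 0.000117) in KO-IR vs WT-IR. Without irradiation the call was lost when WT replicate 2, WT replicate 3 or KO replicate 2 was left out (adjusted p = 0.0532, 0.0924 and 0.0723).

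Poli read 0.20, 0.05 and 0.08 in the WT, 0.22, 0.02 and 0.07 in the WT-IR, -0.15, -0.34 and -0.12 in the KO, and -0.08, -0.24 and -0.02 in the KO-IR arrays. The genotypes did not overlap, at -0.31 (adjusted p = 0.00553) and -0.22 (adjusted p = 0.0389). Neither was a call by the methods' t-test. With irradiation the limma call was also lost without KO-IR replicate 1, KO-IR replicate 2, WT replicate 3, WT-IR replicate 1 or WT-IR replicate 3 (adjusted p = 0.0556, 0.161, 0.0505, 0.160 and 0.0619). Mad2l2, the accessory subunit of polymerase zeta, read -0.05, -0.06 and 0.01 in the WT and 0.14, 0.24 and 0.13 in the KO arrays. It was higher in the KO by 0.20 (adjusted p = 0.0117) and differed by 0.14 after irradiation (adjusted p = 0.0691), where the WT-IR arrays read -0.22, -0.05 and -0.02 and the KO-IR arrays 0.03, -0.01 and 0.11. Rev3l, the catalytic subunit of polymerase zeta, differed by 0.18 and 0.14 (adjusted p = 0.0748 and 0.183) and was called in no comparison. Rev1, a polymerase that also holds the others at the lesion, differed by -0.08 (adjusted p = 0.309) without and was higher by 0.20 (adjusted p = 0.00895) with irradiation, a call that the methods' t-test did not make.

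Of the 14 base excision and single-strand break genes, 10 were called in KO vs WT (background 43.2%), 3 higher (21.5%) and 7 lower (21.7%). In KO-IR vs WT-IR 9 were called (background 44.6%), 3 higher (23.4%) and 6 lower (21.2%). The 2 endonucleases that cut at abasic sites were both lower. Apex1 read 0.24, 0.16 and 0.15 in the WT, 0.20, 0.13 and 0.23 in the WT-IR, -0.29, -0.27 and -0.34 in the KO, and -0.25, -0.21 and -0.13 in the KO-IR arrays. Apex2 read 0.16, 0.19 and 0.12 in the WT, 0.32, 0.32 and 0.35 in the WT-IR, -0.28, -0.19 and -0.22 in the KO, and -0.15, -0.12 and -0.14 in the KO-IR arrays. In both genes every KO and KO-IR array was below every WT and WT-IR array. The differences for Apex1 were -0.48 (SE 0.045, adjusted p = 2.62e-06) and -0.38 (adjusted p = 1.81e-05), and those for Apex2 -0.39 (SE 0.036, adjusted p = 2.37e-06) and -0.47 (adjusted p = 3.92e-07).

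Xrcc1, the scaffold of single-strand break repair, read 0.33, 0.32 and 0.32 in the WT, 0.17, 0.11 and 0.24 in the WT-IR, -0.14, -0.15 and -0.11 in the KO, and -0.19, -0.26 and -0.28 in the KO-IR arrays. It was lower by a log2 difference of -0.46 (SE 0.040, adjusted p = 1.27e-06) and -0.42 (adjusted p = 2.75e-06), with no overlap of genotypes. The 2 break sensors moved in opposite directions. Parp1 read 0.08, 0.09 and 0.15 in the WT, 0.27, 0.27 and 0.24 in the WT-IR, -0.13, -0.17 and -0.15 in the KO, and -0.08, -0.10 and -0.12 in the KO-IR arrays. It was lower by -0.25 (adjusted p = 5.85e-05) and -0.36 (adjusted p = 2.78e-06). Parp2 was higher by 0.36 and 0.30 (adjusted p = 3.88e-05 and 0.000161). Polb, the polymerase that fills the gap, was higher by 0.25 and 0.19 (adjusted p = 0.00325 and 0.0165), the first call being lost under the methods' t-test, as given above, and the second without KO-IR replicate 1 (adjusted p = 0.0570).

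Of the glycosylases, Mutyh was higher and 3 others were lower in the KO. Mutyh, which removes adenine paired with oxidised guanine, read -0.13, -0.18 and -0.19 in the WT, -0.39, -0.49 and -0.28 in the WT-IR, 0.26, 0.35 and 0.30 in the KO, and 0.13, 0.16 and 0.19 in the KO-IR arrays. The KO and KO-IR arrays were above all WT and WT-IR arrays, by 0.47 (adjusted p = 7.08e-06) and 0.54 (adjusted p = 1.82e-06). Ung, the main uracil glycosylase, was lower by -0.55 and -0.66 (adjusted p = 0.000351 and 7.05e-05), and Nthl1, which removes oxidised pyrimidines, by -0.46 and -0.26 (adjusted p = 3.90e-05 and 0.00258). Smug1, also a uracil glycosylase, was lower by -0.15 before irradiation (adjusted p = 0.0143) and differed by -0.06 after it, and the call was lost without KO replicate 3 (adjusted p = 0.0563). Ogg1, Neil1 and Neil2, which act on oxidised bases, and Mpg, which acts on alkylated purines, were called in no comparison: their log2 differences lay between -0.09 and -0.04 in KO vs WT and between -0.07 and 0.09 in KO-IR vs WT-IR.

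All 4 mismatch genes were called in both genotype comparisons (background 43.2% and 44.6%), 3 lower and 1 higher. The methods' t-test did not call Mlh3 in either comparison, nor Pms2 in KO-IR vs WT-IR. Msh6, which recognises single mispairs, read 0.08, 0.11 and 0.13 in the WT, 0.15, 0.22 and 0.21 in the WT-IR, -0.32, -0.29 and -0.21 in the KO, and -0.12, -0.16 and -0.08 in the KO-IR arrays. It was lower by -0.38 (SE 0.041, adjusted p = 7.75e-06) and -0.31 (adjusted p = 4.42e-05) without overlap. Msh3, which recognises larger loops, read 0.14, 0.14 and 0.05 in the WT, 0.24, 0.19 and 0.14 in the WT-IR, -0.23, -0.20 and -0.11 in the KO, and -0.25, -0.05 and -0.08 in the KO-IR arrays. Its differences were -0.29 (adjusted p = 0.00113) and -0.31 (adjusted p = 0.000576), and again no array of one genotype reached the other.

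Mlh3 and Pms2, which act after a mismatch has been recognised, moved in opposite directions. Mlh3 read 0.17, 0.28 and 0.09 in the WT, 0.07, 0.02 and 0.11 in the WT-IR, -0.25, -0.13 and -0.02 in the KO, and -0.02, -0.43 and -0.42 in the KO-IR arrays. It had the widest spread within groups of all 39 members, an SD of 0.140. The differences of -0.31 (adjusted p = 0.0228) and -0.36 (adjusted p = 0.0108) were lost as calls without KO replicate 1, WT replicate 1 or WT replicate 2 in the first comparison (adjusted p = 0.0940, 0.0511 and 0.0886) and without KO-IR replicate 2 in the second (adjusted p = 0.0515). Pms2 read -0.03, -0.07 and -0.01 in the WT, -0.03, -0.08 and -0.09 in the WT-IR, 0.13, 0.15 and 0.16 in the KO, and 0.01, 0.10 and 0.03 in the KO-IR arrays. It was higher by 0.19 (adjusted p = 0.00104) and by 0.11 (adjusted p = 0.0228), and the latter was lost without KO-IR replicate 2, WT-IR replicate 2 or WT-IR replicate 3 (adjusted p = 0.0953, 0.0749 and 0.0773).

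The 3 direct reversal genes reverse alkylation without cutting the strand. Mgmt, which takes alkyl groups off guanine, read 0.53, 0.26 and 0.19 in the WT, 0.31, 0.30 and 0.48 in the WT-IR, -0.31, -0.42 and -0.49 in the KO, and -0.19, -0.34 and -0.21 in the KO-IR arrays. The genotypes stood clear of each other, at -0.73 (1.66-fold, SE 0.088, adjusted p = 2.14e-05) and -0.61 (1.52-fold, adjusted p = 9.63e-05). Alkbh3, an oxidative demethylase, read -0.04, -0.17 and -0.18 in the WT, -0.28, -0.21 and -0.22 in the WT-IR, 0.04, 0.22 and 0.13 in the KO, and 0.07, 0.27 and 0.26 in the KO-IR arrays. It was higher by 0.26 (adjusted p = 0.00613) and 0.43 (adjusted p = 0.000132), the first of which the methods' t-test did not call. Its relative Alkbh2 read 0.12, 0.17 and 0.10 in the WT, -0.02, 0.25 and 0.34 in the WT-IR, -0.05, 0.02 and -0.15 in the KO, and -0.02, -0.08 and -0.02 in the KO-IR arrays, and WT-IR replicate 1 lay level with the KO-IR arrays. Alkbh2 differed by -0.19 (adjusted p = 0.0675) without and was lower by -0.23 (adjusted p = 0.0293) with irradiation, a call that ended without KO-IR replicate 1, 2 or 3 or WT-IR replicate 2 or 3 (adjusted p = 0.0501, 0.0874, 0.0546, 0.103 and 0.132).

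Irradiation moved few members. In WT-IR vs WT, 8 of 39 had an unadjusted p under 0.05 in limma, beside 3021 of all 16755 probe sets. At the adjusted p, 3 of 39 were called against a background of 2.48%, all in base excision. The 2 higher compare with 0.848% of all probe sets and the 1 lower with 1.64%, and none reached 2-fold (0.00597%). Apex2 rose by 0.17 (adjusted p = 0.0272), Parp1 rose by 0.15 (adjusted p = 0.0402) and Mutyh fell by 0.22 (adjusted p = 0.0434). In each of the 3 the WT-IR arrays were on one side of all WT arrays, as the values above show. The calls lay close to the threshold: with single arrays left out the adjusted p reached 0.114 for Apex2 (without WT replicate 3), 0.160 for Parp1 (without WT-IR replicate 2) and 0.177 for Mutyh (without WT-IR replicate 2), and Apex2 was lost in 5, Parp1 in 8 and Mutyh in 9 of the 12 omissions. No nucleotide excision, translesion, mismatch or direct reversal gene was called by limma or the methods' t-test, with 1, 1, 0 and 0 at an unadjusted p under 0.05 in limma.

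In KO-IR vs KO, 11 of 39 members had an unadjusted p under 0.05 in limma, beside 3163 of all 16755 probe sets. At the adjusted p, 5 of 39 were called against a background of 6.30%, and 3 of the 5 were translesion genes. The 4 higher compare with 3.38% of all probe sets and the 1 lower with 2.92%. Polk rose by 0.97 (1.96-fold, SE 0.073, adjusted p = 1.19e-05) and Ercc5 by 0.67 (1.59-fold, SE 0.050, adjusted p = 1.23e-05). Rev1 read -0.18, -0.17 and -0.12 in the KO and 0.18, 0.37 and 0.35 in the KO-IR arrays, a rise of 0.45 (SE 0.055, adjusted p = 0.000477). In the WT it read -0.06, -0.04 and -0.13 before and 0.17, 0.07 and 0.04 after irradiation, a change of 0.17 (adjusted p = 0.127) in which all WT-IR arrays were above all WT arrays, and the difference between the 2 changes was 0.28 (95% confidence interval 0.11 to 0.45, adjusted p = 0.144).

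Polh fell by 0.38 (adjusted p = 0.0155) in the KO, a call that ended without KO replicate 1, KO-IR replicate 2 or KO-IR replicate 3 (adjusted p = 0.0597, 0.0585 and 0.0692). Its change in the WT was -0.09, and the difference between the changes was -0.28 (-0.53 to -0.04, adjusted p = 0.370). Msh6 rose by 0.16 (adjusted p = 0.0425), and 10 of the 12 omissions ended that call, with adjusted p up to 0.156 (without KO replicate 1). The methods' t-test kept only Ercc5 of these 5, giving Polk an adjusted p of 0.0582, Rev1 0.110, Polh 0.156 and Msh6 0.249. Among the 14 base excision genes limma and the t-test called none in the KO, with 4 at an unadjusted p under 0.05 in limma.

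**Figure D3:**
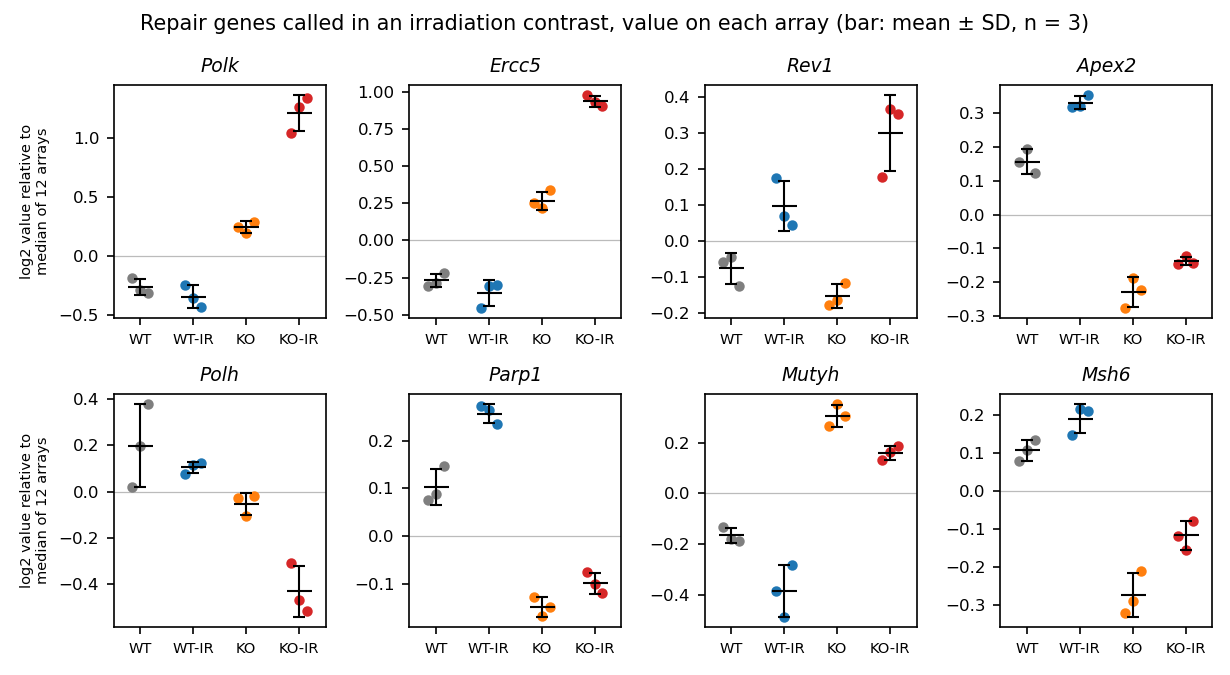
Log2 value on each array, relative to the probe set's median over the 12 arrays, for the 8 members called for the irradiation change in either genotype or for the difference between them; bars show the mean and SD of 3 arrays per group. The KO-IR arrays of Polk (1.04 to 1.33) and Ercc5 (0.90 to 0.98) stand above all other arrays of these genes, and the axes differ between panels.

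**Figure D4:**
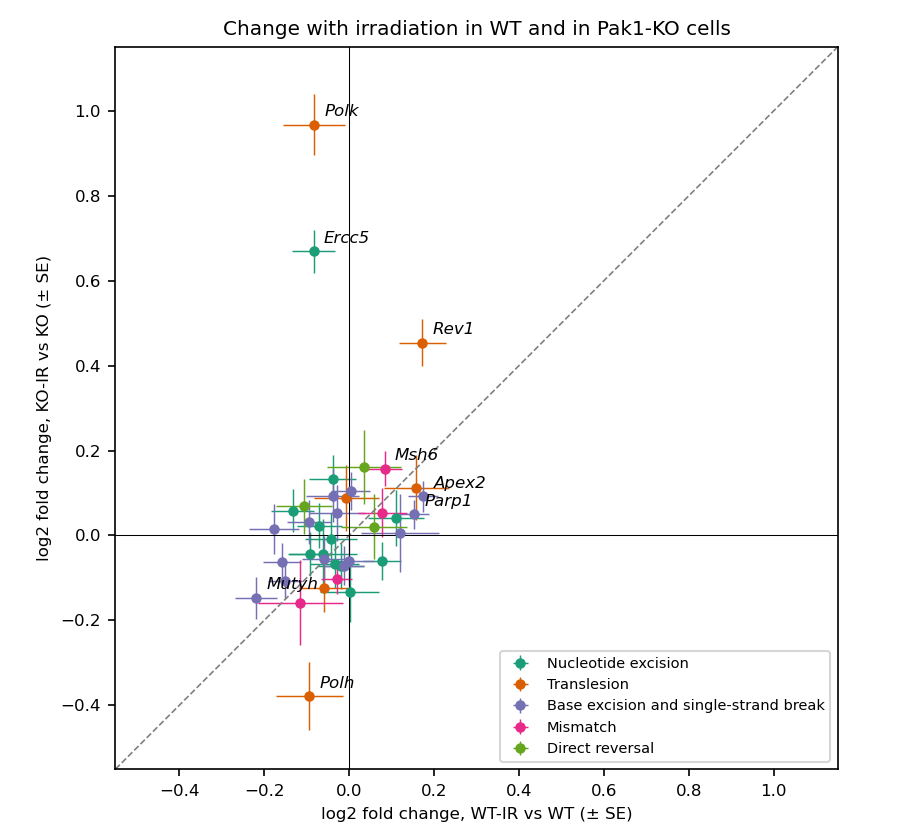
Log2 fold change with irradiation in WT cells (horizontal) against that in Pak1-KO cells (vertical) for the 39 members, coloured by repair class, with bars of 1 SE and a dashed line where the changes are equal; the named genes are those called in either change. Polk and Ercc5 lie far above the dashed line, and all 39 members lie between -0.22 and 0.17 in the WT.

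Several genes that p53 is known to switch on after damage were set beside the members. Of 9 measured, 8 were called higher in KO vs WT (background 21.5%) and 8 in KO-IR vs KO (background 3.38%). With irradiation in the WT the only call was Phlda3, which fell by 0.21 (background 1.64% lower). The difference between the irradiation changes of the KO and the WT was called for 7 of the 9, all higher in the KO (background 1.17%). Of these, 6 were past 2-fold (background 0.149% in either direction), and the median over the 9 was 1.35. They were picked with earlier results of these arrays known, so their direction is no independent evidence. Cdkn1a, which encodes the cell cycle inhibitor p21, read between -1.77 and -1.55 in the WT, -1.62 and -1.34 in the WT-IR, 1.34 and 1.62 in the KO, and 3.21 and 3.37 in the KO-IR arrays. Polk and Ercc5 also had the KO-IR mean highest and the KO mean next, as did Ercc1, Alkbh3 and Rev3l among the members. The lowest group mean of Polk and Ercc5 was that of the WT-IR arrays (-0.35 in both genes), while that of Cdkn1a was in the WT arrays (-1.67). Ddb2 and Xpc, which are p53 targets in human cells, changed by -0.01 (95% confidence interval -0.14 to 0.12) and -0.04 (-0.22 to 0.13) in KO-IR vs KO. The mean level of 12 probe sets of cycling-cell markers, for 11 genes, was lowest in the KO-IR arrays, at -0.14 to -0.13. It was 0.07 to 0.14 in the WT, 0.01 to 0.04 in the WT-IR and -0.00497 to 0.0419 in the KO arrays. Single markers went both ways: in KO vs WT 2 were called higher (background 21.5%) and 3 lower (21.7%). In KO-IR vs WT-IR 1 was called higher (23.4%) and 7 lower (21.2%). The part of these markers in the members' values was not tested.

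**Figure D5:**
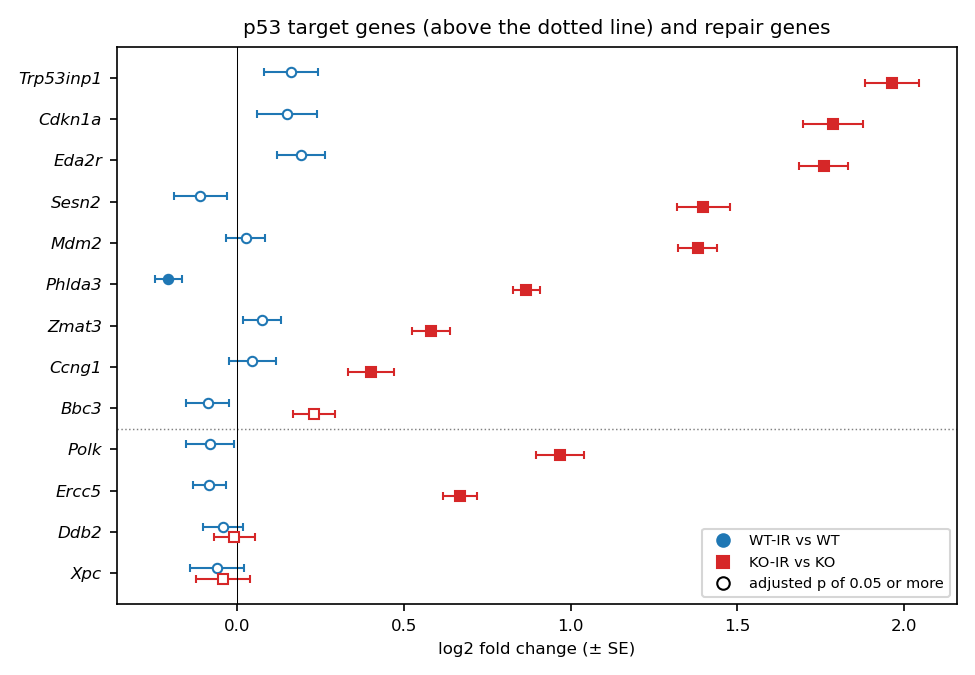
Log2 fold change with irradiation (bars of 1 SE) in WT cells (blue circles) and Pak1-KO cells (red squares) for 9 p53 target genes above the dotted line and 4 repair genes below it; open symbols mark an adjusted p of 0.05 or more. Polk (0.97) and Ercc5 (0.67) lie within the range of the p53 targets in the KO (0.23 to 1.96), while Ddb2 and Xpc lie near 0. Of the members not shown, Rev1 (0.45) also lies within that range and Polh (-0.38) lies below it.

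The members were also read beside 43 further genes of the same pathways that had a probe set, of 57 listed. In KO vs WT 26 of the 43 were called (background 43.2%), 9 higher (21.5%) and 17 lower (21.7%). In KO-IR vs WT-IR 29 were called (background 44.6%), 9 higher (23.4%) and 20 lower (21.2%). Only Cul4a and Xab2 passed 2-fold, both lower (background 4.42% and 5.06%). Cul4a, the scaffold of the ubiquitin ligase that carries Ddb1 and Ddb2, read 0.63 to 0.77 in the WT and -0.74 to -0.63 in the KO arrays, a difference of -1.40 (2.63-fold, SE 0.044, adjusted p = 1.93e-10), and -1.50 (2.82-fold) after irradiation. Xab2, which binds Xpa and acts in transcription-coupled repair, read 0.64 to 0.71 in the WT and -0.69 to -0.65 in the KO arrays, a difference of -1.35 (2.55-fold, adjusted p = 2.34e-09), and -1.26 (2.39-fold) after irradiation. Of their partners among the members, Ddb1 and Xpa were not called and Ddb2 was higher.

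With irradiation, 3 of the 43 were called higher in the WT (background 0.848%) and 2 lower in the KO (background 2.92%). In the WT, Polq, a polymerase of end joining, rose by 0.35 (adjusted p = 0.00217) and Exo1, the mismatch exonuclease, by 0.18 (adjusted p = 0.0440). Rad23b, the partner of Xpc, rose by 0.16 (adjusted p = 0.0430). In the KO, the TFIIH genes Ccnh and Gtf2h3 fell by 0.24 (adjusted p = 0.0285) and 0.20 (adjusted p = 0.0302). Of these 5 calls, only that of Polq kept an adjusted p under 0.05 in all 12 omissions of an array, and the methods' t-test called none of the 5 (adjusted p = 0.0666 for Polq). The others reached 0.196 for Exo1 and 0.181 for Rad23b (both without WT-IR replicate 2), 0.0938 for Ccnh (without KO replicate 2) and 0.116 for Gtf2h3 (without KO replicate 1). Polq read -0.25, -0.26 and -0.27 in the WT, 0.09, 0.14 and 0.04 in the WT-IR, -0.01, -0.05 and 0.07 in the KO, and 0.01, -0.01 and 0.08 in the KO-IR arrays. The WT arrays stood below all others, and the other 3 groups overlapped.

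Over the 12 arrays the members had a median range of 0.508, against 0.399 over all probe sets. Their median SD within groups was 0.0718 against 0.0719. The widest ranges were those of Polk (1.77), Ercc5 (1.43) and Mgmt (1.02), and the narrowest was that of Ddb1 (0.176). Ercc3, Xpa, Ddb1, Rev3l, Ogg1, Neil1, Neil2 and Mpg, 8 in all, were called in none of the 5 comparisons.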

How the data were processed

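The authors hybridised ribosomal RNA-reduced samples to the arrays and processed them in Gene Spring GX. The deposited table holds log2 values, and each probe set was centred on its median over the 12 arrays (largest distance of a median from 0: 5e-07), so absolute signal is unknown and no filter on dim probe sets was possible. No source used here names the summarization or the genome build. The methods called genes by an unpaired t-test with Benjamini-Hochberg correction at 0.05 and 2-fold.

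Gene symbols came from the platform annotation: 14996 probe sets had 1 symbol, 1019 several and 740 none, and all 39 members matched their gene in the mouse reference. The limma package (version 3.58.1, R 4.3.3) fitted 4 group means to all 16755 probe sets of the 12 arrays with lmFit and eBayes, leaving 8 residual and adding 3.48 prior degrees of freedom. Contrasts were the genotype difference without and with irradiation, the irradiation change in each genotype, and the difference between those changes, and p-values were adjusted over all probe sets. The fit was tested on simulated data. Alternatives were the methods' t-test, only the groups compared, the replicate number as a block, quantile normalization, array centring, robust eBayes, probe sets of 1 symbol, fold thresholds, and each array left out.

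Values on every array were given for the 4 members of each class with the smallest adjusted p in each genotype comparison and for every member called with irradiation. Of the other pathway genes, those past 2-fold, or called with irradiation, were named. The p53 targets and other markers, and the alternatives run for genes outside that rule, were chosen after the data were seen. The members and lists were chosen with earlier results of these data known. Plots used matplotlib 3.10.9 (Python 3.11.15).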

Additional observations from a re-analysis of the deposited data

Results flagged for a closer look

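By the limma test, the change with irradiation differed between the genotypes for 2 of the 39 members, 1 of the 43 other pathway genes, 7 of the 9 p53 targets and 1 of the 12 fibroblast markers. Over all probe sets the share was 1.37%. For Polk the change in KO cells exceeded that in WT cells by 1.05 on the log2 scale (adjusted p = 0.000278), and for Ercc5 by 0.75 (adjusted p = 0.000230). In both genes all 3 KO-IR arrays were above all 3 KO arrays, while the WT-IR and WT arrays overlapped. For Polq, a polymerase of end joining outside the member list, the difference was -0.33 (adjusted p = 0.0205), from a rise of 0.35 in the WT and a change of 0.02 in the KO. The calls of Polk and Ercc5 held without any 1 array. That of Polq was lost without WT replicate 1, 2 or 3 (adjusted p = 0.0519, 0.0528 and 0.0576), KO replicate 1 (0.0546), WT-IR replicate 1 or 2 (0.0553 and 0.0721) or KO-IR replicate 2 (0.0581), and with the replicate number as a block (0.0509).

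For the p53 targets the difference was 1.80 for Trp53inp1 (adjusted p = 7.04e-06), 1.64 for Cdkn1a (3.73e-05), 1.57 for Eda2r (8.88e-06), 1.51 for Sesn2 (2.60e-05), 1.35 for Mdm2 (6.66e-06), 1.07 for Phlda3 (2.59e-06) and 0.51 for Zmat3 (0.00818). Quantile normalization ended the call of Zmat3 (adjusted p = 0.0786). For the fibroblast marker Pdgfra it was -0.40 (adjusted p = 0.0196), a call lost without WT replicate 1 or 2 (0.0554 and 0.0526), WT-IR replicate 2 (0.0686) or KO-IR replicate 2 (0.0563), and with the replicate block (0.0502).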

How the results depend on the processing

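The genotype counts stayed within 1.5 times of their main values, but not every gene did. The methods' t-test gave 9 higher and 13 lower in each genotype comparison, losing 6 member calls in KO vs WT and 7 in KO-IR vs WT-IR. With single arrays left out, members higher numbered 11 to 12 in KO vs WT and 10 to 11 in KO-IR vs WT-IR, and members lower 14 to 18 in both. The irradiation counts moved further. In WT-IR vs WT, the 2 higher members became 0 by the t-test of the methods, 1 where only the compared groups were fitted and 0 to 2 with arrays left out, and the 1 lower member became 0 under the t-test and with arrays centred on their medians, and 0 to 2 with arrays left out. In KO-IR vs KO, the 4 higher members became 1 under the t-test and 3 to 4 with arrays left out, and the 1 lower became 0 under the t-test and 0 to 2. For the difference of the irradiation changes, 2 to 3 members were higher and 0 lower. With a fold change of at least 1.5 the called members numbered 4 between genotypes without (background 12.5%) and 6 with irradiation (14.2%). They numbered 0 for irradiation in the WT (0.0597%) and 2 in the KO (0.531%). With at least 2-fold they numbered 0, 2, 0 and 0 in the same order, and 1 for the difference. The backgrounds at 2-fold were 4.42%, 5.06%, 0.00597%, 0.143% and 0.149%. The cause of these shifts was not tested beyond the fewer arrays and stricter thresholds themselves.

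The labels do not say whether same-numbered arrays belong together, and the values could not settle it with so few arrays. Deviations of same-numbered arrays from their group means correlated between -0.144 and 0.211, with 3 of 12 pairs over 0.1. With the replicate number as a block, the counts in WT-IR vs WT fell to 0 higher and 0 lower, and those of the other comparisons did not change.

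Signs turned only for uncalled genes near 0. With single arrays left out, Xpa ranged from -0.051 to 0.046 in KO vs WT, and in KO-IR vs WT-IR Xpa ranged from -0.058 to 0.0050, Neil2 from -0.014 to 0.11 and Ogg1 from -0.052 to 0.023. Without single arrays, Ddb1, Rev3l and Alkbh2 entered the calls of KO vs WT, and Rev3l and Mad2l2 those of KO-IR vs WT-IR, and with only the compared groups fitted Rev3l and Alkbh2 entered those of KO vs WT. Without absolute signal, dim probe sets cannot be told from bright ones.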
